A study of Mus musculus with 7 samples.

Results

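The day 0 5mC regions are the stretches of the mouse genome that the study's authors called as enriched for 5-methylcytosine (5mC) in undifferentiated ATDC5 cells. All 326 rows of the day 0 5mC peak list were taken as members, out of 8949 regions in the 4 lists of the series. The other lists hold 2401 regions of day 10 5mC, 2058 regions of day 5 5-hydroxymethylcytosine (5hmC) and 4164 regions of day 10 5hmC.

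ATDC5 is a mouse chondrogenic cell line. The labels call its cells chondroprogenitors on day 0 and differentiating chondrocytes on days 5 and 10, and no group carries a genetic change in its labels. Per the study's methods, differentiation was started with an insulin, transferrin and selenite supplement. The series has 1 input DNA sample and 1 5mC sample of day 0, 1 5mC sample of day 10, and 2 5hmC samples each of day 5 and day 10, which were merged into 1 list per day. The 5mC lists were filtered at 3-fold enrichment and the 5hmC lists at 10-fold, and what each list was enriched over is not given in its header. A region here is a position only, with no score or read count, so the read depth behind it is unknown. With 1 list per group there is no spread between replicates, and each test below compares lists of regions, not samples.

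In mammalian cells 5mC sits mainly at CpG, a cytosine followed by a guanine, and the capture used for the 5mC samples employs a complex of methyl-CpG binding proteins. Much of the methylated DNA of a mammalian genome lies in transposable elements, where methylation is known to keep them silent. The most abundant of these by bases in mouse is LINE-1, an autonomous retrotransposon that encodes an RNA-binding protein (ORF1) and an endonuclease and reverse transcriptase (ORF2), and most of its copies are truncated at the 5′ end. B1 is a short element that is copied by the LINE-1 machinery, and runs of AC, called microsatellites, are a common simple repeat in mouse.

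Most day 0 5mC regions held 1 of 2 kinds of repeat sequence, which hardly met in the same region. A LINE-1 sequence made up most of 151 regions (46.3%, 95% Wilson interval 41.0 to 51.7), and a perfect run of AC, or GT on the other strand, of at least 24 bases lay in 93 regions (28.5%, interval 23.9 to 33.7). Only 1 region had both and is counted with the LINE-1 regions, which left 92 regions with an AC run alone and 83 regions with neither (25.5%). A region was called LINE-1 where at least 50% of its bases, and at least 100 bp, aligned at 70% identity or more to a LINE-1 copy described below. The intervals here cover counting error only. These classes were drawn up after the regions had been inspected, so they are described without a test.

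The stretches of equal width that start 2000 bp beyond the edges of each region served as its background. A LINE-1 sequence made up most of 58 of the 326 upstream flanks (17.8%) and 55 of the downstream flanks (16.9%). An AC run was found in 12 upstream flanks (3.68%) and 21 downstream flanks (6.44%). Both kinds of sequence were thus more frequent inside the regions than beside them. In the other lists LINE-1 made up most of 5 day 10 5mC regions (0.208%), 1 day 5 5hmC region (0.0486%) and 4 day 10 5hmC regions (0.0961%). The AC run was less rare there, in 181 day 10 5mC regions (7.54%), 85 day 5 5hmC regions (4.13%) and 17 day 10 5hmC regions (0.408%), the last of which are short regions with a median width of 147 bp against 736 bp for day 0 5mC.

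**Figure D1:**
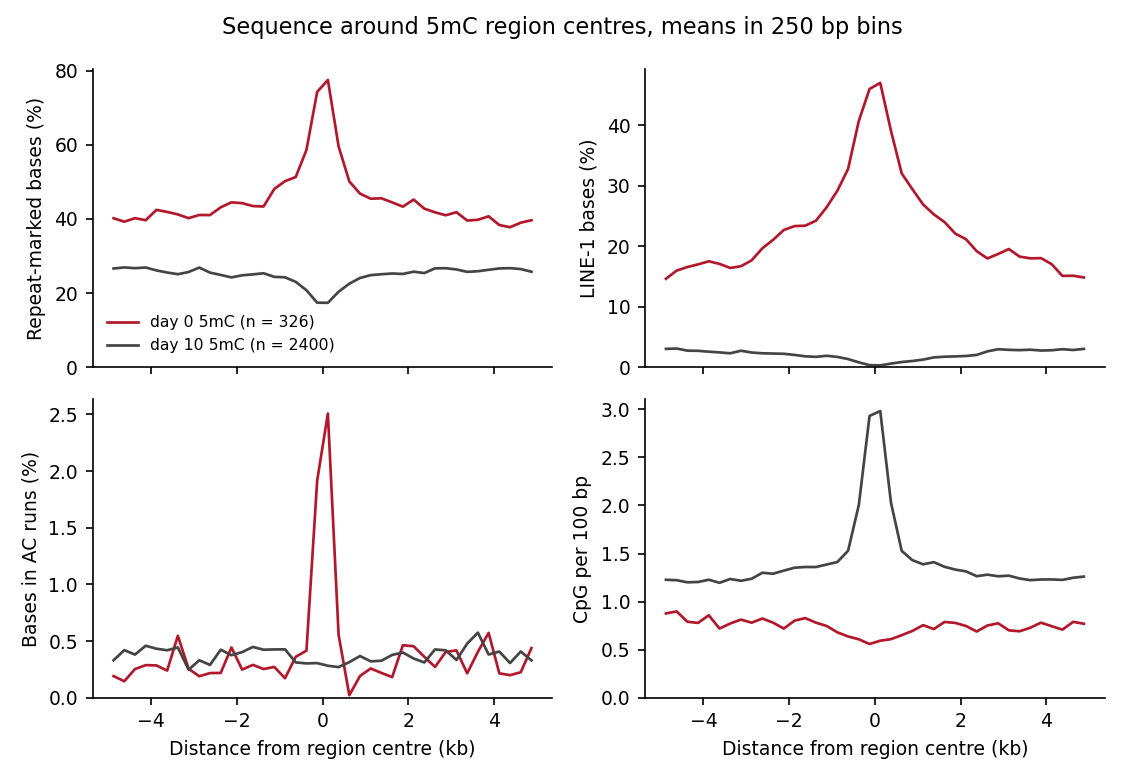
Repeat-marked bases, LINE-1 bases, bases in AC runs and CpG per 100 bp (y axes) by distance from the region centre in kb (x axis), each line the mean over the regions of 1 list in 250 bp bins, for day 0 5mC (326 regions) and day 10 5mC (2400 regions, 1 being too near the end of its sequence for the window). In the bin just right of the centre, 77.5% of the bases of day 0 5mC regions were repeat-marked, 47.0% were LINE-1 and 2.51% lay in AC runs, and CpG stood at 0.59 per 100 bp.

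The shared LINE-1 sequence is printed first because it is the commonest 20-base string in the list once strings of simple repeats are left out. The string was picked for its count in the day 0 5mC regions, so an excess there over flanks and other lists is partly built in. A 20-base string of LINE-1 was present, on 1 strand or the other, in 29 of the 326 day 0 5mC regions (8.90%) and in 4 of their upstream flanks (1.23%), against 2 day 10 5mC regions (0.0833%), 1 day 5 5hmC region and 0 day 10 5hmC regions, and it has 39017 exact copies in the genome. Below, 100 bases around it are given for a LINE-1 copy on chromosome 8 and for the 4 widest day 0 5mC regions that hold it well inside their edges in introns or intergenic DNA, all in build GRCm38 and read along the LINE-1 strand, with the shared string in capitals.
LINE-1 copy (chr8:72839341-72839440, minus strand): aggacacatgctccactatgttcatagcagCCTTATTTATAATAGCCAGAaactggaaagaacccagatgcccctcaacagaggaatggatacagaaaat
Region in 4921509O07Rik (chr13:113475238-113475337, plus strand): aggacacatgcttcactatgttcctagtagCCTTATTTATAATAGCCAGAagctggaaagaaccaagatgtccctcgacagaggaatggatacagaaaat
Region on chromosome 6 (chr6:20107859-20107958, minus strand): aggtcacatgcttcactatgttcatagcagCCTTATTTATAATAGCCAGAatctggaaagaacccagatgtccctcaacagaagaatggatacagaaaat
Region on chromosome 13 (chr13:96198437-96198536, minus strand): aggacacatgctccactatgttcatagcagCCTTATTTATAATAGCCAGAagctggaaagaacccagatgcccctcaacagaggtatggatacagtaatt
Region on chromosome 1 (chr1:5469522-5469621, minus strand): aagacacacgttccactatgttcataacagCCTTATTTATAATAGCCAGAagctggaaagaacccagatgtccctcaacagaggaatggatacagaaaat
Counted position by position without gaps, the 4 regions matched the chromosome 8 copy at 93, 95, 96 and 94 of 100 bases in the order printed. Each region is therefore its own diverged copy, and the stretch holds 1 CpG in the first region, 1 in the last and 0 in the other two.

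The chromosome 8 copy was chosen, among LINE-1 copies with a long ORF2 stretch, as the one that the largest number of day 0 5mC regions aligned to. Its counts in flanks and other lists are therefore not on equal terms with those in day 0 5mC. Only a window of 6000 bp was used, from 1300 bp before the ORF2 stretch to 800 bp after it. Parts of the element outside this window could not be called LINE-1 here. Its longest stretch without a stop codon is 3900 bp (chr8:72839184-72843083, minus strand), contains the conserved reverse transcriptase residues of ORF2, and is preceded by another stop-free stretch of 1152 bp. The 151 LINE-1 regions lay in both orientations, 76 with the plus strand and the rest with the minus strand. They aligned over a median of 98.2% of their bases, and the median identity of the longest alignment was 85.1% (80% of them between 76.5 and 89.7). For the 113 LINE-1 flanks the median was 87.8%.

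Along this window of the element, the day 0 5mC regions gathered at the end of ORF2 and the sequence that follows it. The depth, the mean number of regions covering a base in 100 bp bins, was 58.6 at 4050 bp from the start of the ORF2 stretch, 37.2 at 3450 bp, 11.7 at 2850 bp, 5.88 at 450 bp and 14 at 150 bp before the start. The alignment was centred at or past 3000 bp in 98 of 151 LINE-1 regions (64.9%, interval 57 to 72.1) and in 41 of 113 LINE-1 flanks (36.3%, interval 28.0 to 45.5). A further 38 regions were centred in the first 3000 bp of ORF2, and 15 lay before it. Flanks start 2000 bp from their region, so a flank within the same element falls at another position of it. The lower share in flanks is therefore partly built in and is no independent background for position. The chromosome 8 copy itself has 0.77 CpG per 100 bp in the first 3000 bp of the stretch and 0.65 from there to the end of the window. The LINE-1 regions had fewer, with a median of 0.53 per 100 bp for the 98 centred past 3000 bp, 0.40 for the 38 before that and 0.42 for the 15 upstream of ORF2.

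**Figure D2:**
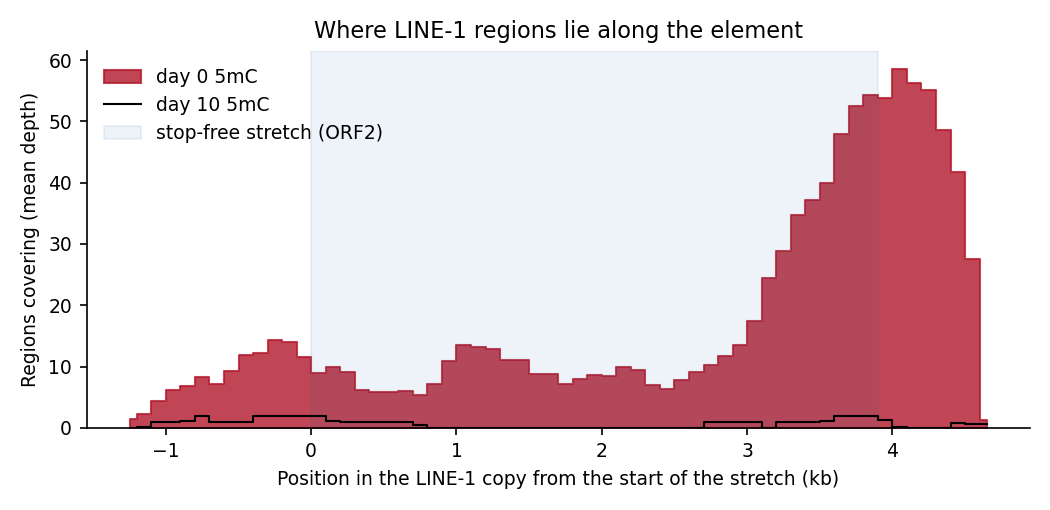
Mean number of regions covering each 100 bp bin (y axis) by position in the LINE-1 copy in kb from the start of its ORF2 stretch (x axis), for day 0 5mC (filled) and day 10 5mC (line), with the stop-free ORF2 stretch shaded. The day 0 5mC depth rises to 58.6 near 4 kb, and the few LINE-1 regions of day 10 5mC stay near 0.

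The second kind of sequence is the AC run, for which 3 regions are printed with the run in capitals, on the plus strand of GRCm38. The first is in an intron of Fbn1, which encodes fibrillin-1 of extracellular microfibrils, the second in an intron of Tgm2, a transglutaminase that crosslinks proteins, and the third is one of the 10 regions with no CpG at all. Tgm2 was picked after its values were seen.
Fbn1 intron (chr2:125354653-125354772, plus strand): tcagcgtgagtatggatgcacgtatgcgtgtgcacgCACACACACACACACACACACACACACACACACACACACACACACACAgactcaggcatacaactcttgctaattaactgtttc
Tgm2 intron (chr2:158137096-158137215, plus strand): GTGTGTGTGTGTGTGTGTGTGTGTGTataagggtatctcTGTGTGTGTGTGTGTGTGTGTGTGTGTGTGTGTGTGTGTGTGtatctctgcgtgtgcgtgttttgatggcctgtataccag
Intergenic, chromosome 13 (chr13:111198105-111198224, plus strand): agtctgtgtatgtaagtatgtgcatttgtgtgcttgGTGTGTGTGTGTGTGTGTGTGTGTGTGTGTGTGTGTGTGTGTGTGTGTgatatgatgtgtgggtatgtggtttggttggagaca
The Fbn1 region (chr2:125354448-125355044, 597 bp) holds 12 CpGs and a run of 48 bases. The Tgm2 region (chr2:158136560-158137262, 703 bp) holds 7 CpGs, and its longest run is 42 bases. The chromosome 13 region (chr13:111197832-111198669, 838 bp) holds 2 runs, the longest also of 48 bases, and 0 CpGs.

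The longest run of a region had a median of 38 bp in day 0 5mC and 36 bp in day 10 5mC. It was 38 bp in day 5 5hmC and 32 bp in day 10 5hmC. The mean of the 243829 AC runs of at least 24 bases in the genome was 38.0 bp, which is a mean over all runs and so an unlike measure. The 116 runs in day 0 5mC regions were 0.0476% of the genome's. The median distance between the run and the centre of the region was 149.5 bp in day 0 5mC (quartiles 76 and 216), 273 bp in day 10 5mC, 264.5 bp in day 5 5hmC and 44.5 bp in day 10 5hmC. The order of these distances is that of the median widths over all regions, which were 736, 1006, 819 and 147 bp, and the part of width was not tested. The run lay within 50 bp of the centre in 16 of the 93 day 0 5mC regions (17.2%).

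**Figure D3:**
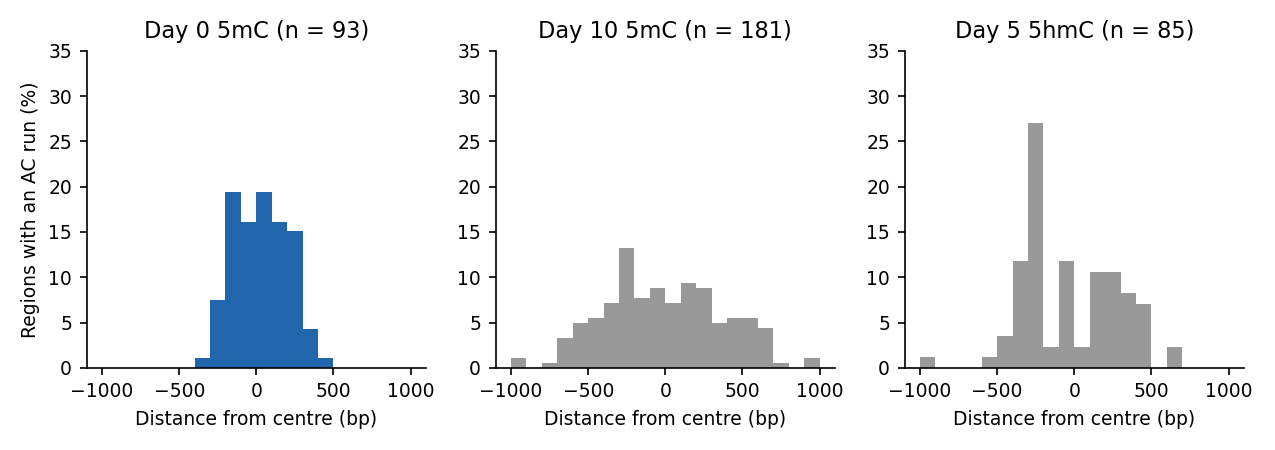
Share of the regions with an AC run (y axis, percent) by signed distance in bp from the region centre to the longest run (x axis, 100 bp bins), for 93 day 0 5mC, 181 day 10 5mC and 85 day 5 5hmC regions. The median distance is 149.5 bp for day 0 5mC, 273 bp for day 10 5mC and 264.5 bp for day 5 5hmC, in lists whose median widths are 736, 1006 and 819 bp.

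Another element, B1, was found mainly among the 83 regions with neither LINE-1 nor an AC run. At least 1 of 2 common 20-base B1 strings was present in 31 of these 83 (37.3%), in 4 of the 92 AC run regions and in 3 of the 151 LINE-1 regions, 38 in all. LINE-1 regions aligned to LINE-1 over a median of 98.2% of their bases, which leaves little room for B1. The low B1 count among them is therefore partly built into the classes. Both strings were picked for their count in day 0 5mC regions, so a higher share in that list is partly built in. The commoner string was in 28 day 0 5mC regions (8.59%), 9 of their upstream flanks (2.76%), 56 day 10 5mC regions (2.33%) and 33 day 5 5hmC regions (1.60%), and has 79594 copies in the genome. It is shown in capitals in the introns of Cbx5, a heterochromatin protein that binds methylated histone H3, and Hira, a histone chaperone, which are the widest intron or intergenic regions, among the 83, that hold this string well inside their edges, and both are read along the B1 strand.
Cbx5 intron (chr15:103234159-103234258, minus strand): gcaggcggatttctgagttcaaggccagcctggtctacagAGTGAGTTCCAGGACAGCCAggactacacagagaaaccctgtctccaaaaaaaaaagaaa
Hira intron (chr16:18883726-18883825, minus strand): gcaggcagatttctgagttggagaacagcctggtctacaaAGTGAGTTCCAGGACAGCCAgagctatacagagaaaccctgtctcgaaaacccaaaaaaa
Both stretches end in the A-rich tail of the element, and each holds 1 CpG. Of the 83 regions, 47 held a B1 string or a simple repeat run of some unit, and 36 held neither.

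The 3 classes differed in how much of the region was repeat and in where the regions lay. LINE-1 regions were repeat-marked (lower case in the assembly, by the assembly's own masking) over a median of 95.9% of their bases, against 48.8% for AC run regions and 56.5% for the others, and 36.4% for the genome. Their own flanks were at medians of 55.6%, 27.9% and 27.7%. The LINE-1 class requires at least 50% of bases to align to LINE-1, whereas an AC run needs only 24 bases. The higher repeat share of LINE-1 regions is therefore partly built in. LINE-1 regions were intergenic in 103 of 151 cases (68.2%) and in introns in 36 (23.8%). AC run regions were in introns in 45 of 92 cases (48.9%) and intergenic in 36 (39.1%), and the others in introns in 37 of 83 (44.6%) and intergenic in 32 (38.6%). An authors' gene symbol was given to 26 LINE-1 regions (17.2%), 48 AC run regions (52.2%) and 50 of the others (60.2%). The median distance to the nearest transcription start was 28114 bp, 16695 bp and 12852 bp in the same order, and the nearest day 10 5mC region lay at a median of 932862 bp, 322910 bp and 294913 bp.

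CpG was sparse in all 3 classes. The day 0 5mC regions held a median of 4 CpGs each (range 0 to 16), and 198 of 326 (60.7%) had at most 4. The median density was 0.48 per 100 bp in LINE-1 regions, 0.53 in AC run regions and 0.66 in the others, against a genome mean of 0.83. The density was below that of the region's own flanks in 68 of 151 LINE-1 regions (45.0%), 64 of 92 AC run regions (69.6%) and 52 of 83 others (62.7%), so the LINE-1 regions lay in surroundings that were about as poor in CpG, with a flank median of 0.48 against 0.86 and 0.79. For comparison, the day 10 5mC regions held a median of 24 CpGs, the day 5 5hmC regions 13 and the short day 10 5hmC regions 3. Median densities per 100 bp were 2.42, 1.61 and 1.80 in the same order, against 0.52 in day 0 5mC. Regions with no CpG were 10 (3.07%) in day 0 5mC and 273 (6.56%) in day 10 5hmC. They were 1 each in day 10 5mC and day 5 5hmC.

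**Figure D4:**
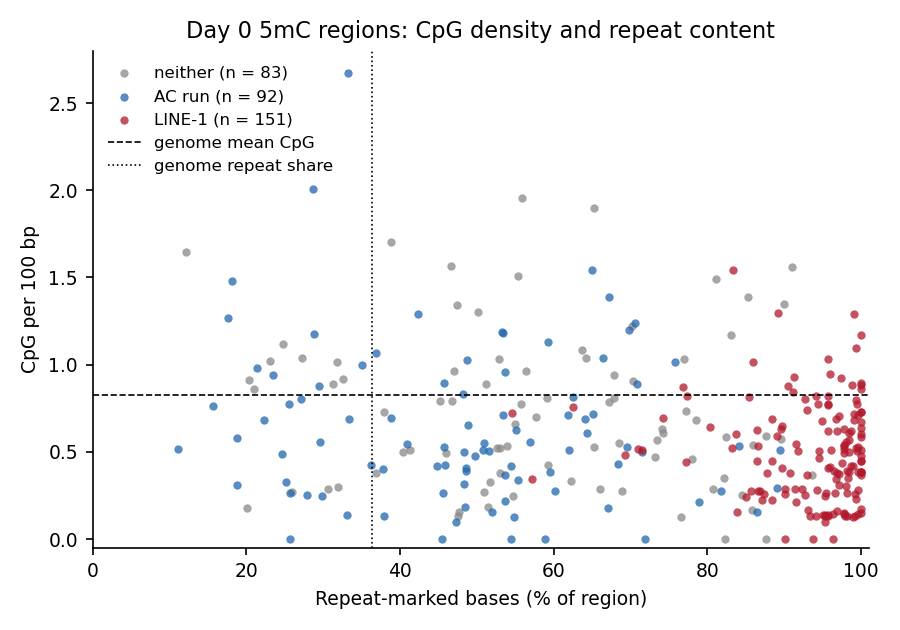
CpG per 100 bp (y axis) against repeat-marked bases as a percent of the region (x axis), 1 point per day 0 5mC region coloured by class, with the genome's mean CpG density (dashed) and repeat share (dotted). LINE-1 regions crowd at the right edge, with a median of 95.9% repeat, while AC run regions and the rest spread from 11.1% upward.

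Of the 10 regions without a CpG, 5 were AC run regions, 3 were LINE-1 regions and 2 were neither. None of the 10 stayed without a CpG once 500 bp were added on each side, where they held 2 to 8, but 2 still did with 200 bp added. The widest of them is a LINE-1 region (chr9:77066409-77067414, 1006 bp, 90.2% repeat, 76.9% identity), aligned to the part of the element before ORF2. Its central 120 bases are given on the plus strand, with no CpG to put in capitals.
Intergenic, chromosome 9 (chr9:77066851-77066970, plus strand): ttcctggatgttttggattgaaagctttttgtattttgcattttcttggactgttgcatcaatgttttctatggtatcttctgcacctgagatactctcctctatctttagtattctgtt
Another, of 798 bp, is a LINE-1 region in an intron of Grk4, a G protein-coupled receptor kinase (chr5:34683546-34684343).

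At the other end, the highest density was in a 449 bp region in an intron of Wasf3, a regulator of actin assembly (chr5:146399335-146399783), with 12 CpGs, or 2.67 per 100 bp. Below are the 200 bases of it that hold the most CpGs, 11, with every CpG in capitals on the plus strand.
Wasf3 intron (chr5:146399458-146399657, plus strand): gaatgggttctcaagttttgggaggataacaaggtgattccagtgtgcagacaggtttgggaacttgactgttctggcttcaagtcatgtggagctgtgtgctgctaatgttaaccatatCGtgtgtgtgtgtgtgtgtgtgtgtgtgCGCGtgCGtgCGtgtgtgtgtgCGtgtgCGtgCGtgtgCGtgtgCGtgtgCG
Most of these CpGs stand in the stretch rich in GT, where CG alternates with TG. The next regions in CpG density were those in Fbn1 (2.01 per 100 bp), in an intron of Hectd4 under the authors' symbol Gm15800 (16 CpGs, 1.96), and in intergenic DNA of chromosome 3 (1.90). A 200 bp window with at least 50% GC and an observed to expected CpG ratio of at least 0.6, the usual marks of a CpG island, was found in 6 regions (1.84%). Of these, 5 were AC run regions, those in Socs7, Fbn1 and Wasf3 among them, and the sixth was the Hectd4 region. These 6 were picked out after their values were seen.

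Against the day 10 5mC list, each of the 5 shares tested differed in a two-sided Fisher's exact test with Benjamini-Hochberg adjustment over 10 tests. The day 0 5mC list was already known to be repeat-rich and CpG-poor when the shares were chosen. The tests of repeat and CpG, here and against day 5 5hmC, thus measure known traits and are no independent support for them. Regions with at least 50% repeat-marked bases were 252 of 326 (77.3%, interval 72.5 to 81.5) on day 0 and 168 of 2401 (7.0%, interval 6.04 to 8.09) on day 10 (exact test, adjusted p = 7.39e-170). Regions below the genome's CpG density were 253 (77.6%) and 107 (4.46%, exact test, adjusted p = 6.71e-198). A CpG island-like window was in 6 regions and in 1638 (68.2%, exact test, adjusted p = 6.26e-132), and an exon was overlapped by 14 (4.29%) and 1041 (43.4%, adjusted p = 6.49e-53). The day 0 5mC regions were thus the more repetitive, the poorer in CpG and the less exonic.

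The same held against the day 5 5hmC list. By the exact test, 62 of 2058 regions (3.01%) had a repeat majority (adjusted p = 2.02e-207), 150 (7.29%) were below the genome's CpG density (adjusted p = 3.17e-163), 422 (20.5%) held a CpG island-like window (adjusted p = 5.28e-22) and 441 (21.4%) overlapped an exon (adjusted p = 2.05e-16). The fold threshold of that list is higher and its mark is another, and these cannot be told apart from the day in this comparison.

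A short read from most of these regions has a single exact place in the genome. Per the study's methods, reads of low mapping quality were left out, and here the copy number of each 43-base window, the length of a trimmed read, was counted exactly in the genome. Most windows were found more than once in only 20 of 326 regions (6.13%, interval 4.01 to 9.29), and 307 regions (94.2%) had at least 50% of their windows unique. That share was above the 34 of 2401 regions of day 10 5mC (1.42%, adjusted p = 1.40e-06) and the 15 of 2058 of day 5 5hmC (0.729%, adjusted p = 1.56e-09) in Fisher's exact test. A median of 34.3% of the windows of a LINE-1 region occurred more than once, against 4.92% for AC run regions and 8.46% for the others. With windows of 25 bases, regions with most windows found more than once were 49.1% of the day 0 5mC list. They were 4.50% of the day 10 5mC list and 1.17% of the day 5 5hmC list.

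The 5 regions with the most copies were all LINE-1. In an intergenic region of chromosome 5 (chr5:85573537-85574372, 93.9% identity) the median 43-base window had 695.5 copies, and in one of chromosome 8 (chr8:20514713-20515255) 90.02% of the windows occurred more than once, with a median of 38 copies. The next were at medians of 15, 10 and 9.5 copies, on chromosomes 5, X and 5. In all but 20 of the LINE-1 regions, and in every region of the other 2 classes, the median window was unique.

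Regions were also grouped by whether they aligned with each other. At 80% identity over 50% of the shorter region, 171 of the 326 regions aligned with at least 1 other, in 4 groups of 150, 15, 4 and 2. When 25% of the shorter region was enough, 254 regions aligned and all fell in 1 group. The largest of the 4 groups held 142 LINE-1 regions, and its widest member is the 2558 bp region upstream of Gm13036 (chr4:146053426-146055983), of which 80.5% aligned to LINE-1. The 15 regions of the next group all carried an AC run, the widest being a 961 bp region in an exon of the lincRNA F630040K05Rik (chr17:45779589-45780549). The widest members of the remaining groups were an intergenic region of chromosome 3, 47.0% of which aligned to LINE-1, and a region of chromosome 6 upstream of Gm25136.

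Exons were touched by 14 regions, 10 of them in exons of protein-coding genes. A coding exon was overlapped by 3, all AC run regions, in Itgb4, an integrin subunit of hemidesmosomes (chr11:115998123-115999039, 917 bp, 11 CpGs), in Npl, which cleaves sialic acid (chr1:153518949-153519715), and in A630001G21Rik (chr1:85718354-85718941). A UTR was overlapped by 4, none with LINE-1 or an AC run, in Kdm7a, a histone demethylase, in Trpm8, the cold-sensing channel, in Ccdc114, a component of ciliary dynein docking, and at a place shared by Mcph1 and Angpt2. The Mcph1 region (chr8:18689621-18690402) was among the least repetitive, at 23.1%, and every 43-base window of it was unique. The last 3 lay in exons of noncoding transcripts of Nudcd1, of S1pr2, a receptor for sphingosine 1-phosphate, and of Ppard, a nuclear receptor for fatty acids. Of these, the Nudcd1 region was the only LINE-1 region of the 10.

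Elsewhere the regions lay outside exons. By the GENCODE annotation 118 (36.2%) were in introns, 23 (7.06%) within 5000 bp upstream of a gene and 171 (52.5%) intergenic. Over the assembled genome, 5.90% of bases are within that distance upstream of a gene and outside genes, 48.1% are intergenic and 4.84% are exonic. These are shares of bases, whereas a region was counted as exonic if it touched an exon at all. The measures are unlike, so whether the regions were placed as the genome is cannot be told from them. Only 12 regions lay within 1000 bp of a transcription start, and 34 were over 100000 bp from any. Those 12 include regions 399 bp from the start of Mfap2, a microfibril protein, 269 bp from that of Scarb2, a lysosomal receptor, and 752 bp from that of Shmt1, an enzyme of folate metabolism, all 3 without LINE-1 or an AC run. They were picked after their values were seen.

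A day 0 5mC region lay in the body of, or up to 5000 bp upstream of, 180 of 55450 annotated genes (0.325%) and 119 of 21951 protein-coding genes (0.542%). The 110 protein-coding genes with a region in the gene body had a median length of 104 kb, against 17.4 kb over all protein-coding genes. A longer gene is more likely to hold a region wherever regions fall, so this contrast is partly built in. None of the 13 cartilage genes of the study's text, 16 genes that write, read or remove cytosine modifications, 35 imprinted genes and 20 germline genes known to be silenced by methylation had a region. Olfactory receptors had 0 of 1407, vomeronasal receptors 1 of 327 (Vmn1r5) and 2 of 238 (Vmn2r99 and the pseudogene Vmn2r-ps59), and zinc finger genes named Zfp 3 of 421 (Zfp369, Zfp791 and Zfp982). Genes named Slc had 4 of 394 (1.02%) and genes named Ugt 1 of 22 (4.55%), while genes named Cyp had 0 of 138 and Hox 0 of 45. These counts are small and are to be read against the 0.325% over all genes and the 0.542% over protein-coding genes. The lists of 13 to 35 genes are too short for a count of 0 to tell them from either share. The only symbol carried by more than 1 region was Gm13152, with 2 regions on chromosome 4 (chr4:147337432-147338363 and chr4:147496615-147497444), both LINE-1, at identities of 89.5% and 72.9%.

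The regions were spread unevenly over chromosomes. Chromosome 6 had 44 and chromosome 5 had 38, together 25.2% of the regions on 11.1% of the assembled bases, while chromosome 12 had 0, Y had 0 (88.1 Mb, of which 96.3% is repeat-marked), chromosome 18 had 1 and chromosome 7 had 5. Chromosomes 5 and 6 also held 20.4% of the day 10 5mC regions, 16.9% of the day 5 5hmC and 17.7% of the day 10 5hmC regions. Over the 19 autosomes and X, the number of day 0 5mC regions per Mb ran with that of day 10 5mC (Pearson r = 0.83, Spearman rho = 0.88, n = 20), day 5 5hmC (0.84 and 0.91) and day 10 5hmC (0.84 and 0.88). The points are chromosomes of 1 cell line, and the lists share its genome and each chromosome's gene and base content.

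**Figure D5:**
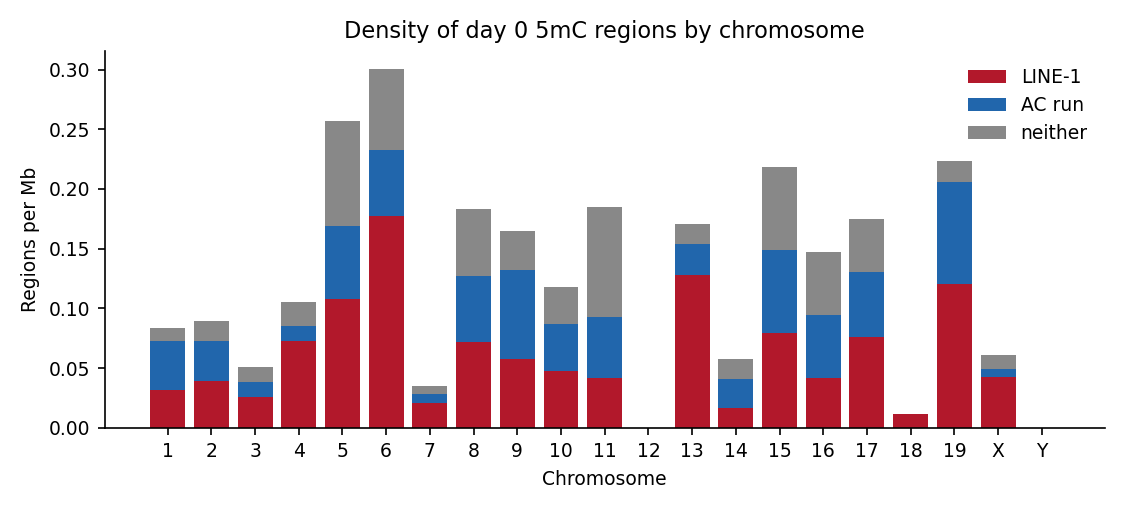
Day 0 5mC regions per assembled Mb (y axis) by chromosome (x axis), stacked by class. Chromosome 6 reaches 0.301 and chromosome 5 0.257 per Mb, and chromosomes 12 and Y have no region.

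Few regions stood close together. Another day 0 5mC region lay within 1000000 bp of 107 regions (32.8%) and within 10000 bp of 4, which form a pair of LINE-1 regions 1542 bp apart on chromosome 8 and a pair of LINE-1 regions 5296 bp apart on X.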

How the data were processed

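The series profiled genomic DNA of ATDC5 cells by enrichment and sequencing. Per the study's methods and the submitters' processing notes, the authors trimmed reads with cutadapt, aligned them to GRCm38/mm10 with BWA, filtered on mapping quality and called peaks with MACS 1.4.2. The deposited files are 4 peak lists of start and end positions, some rows with a gene symbol. Minimum enrichment per the file headers was 3-fold for 5mC, with 1 sample a list, and 10-fold for 5hmC, with samples merged.

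From these positions, width, base content, repeat-marked bases, CpG, exact copies of 43-base windows and placement in GENCODE vM21 were computed on GRCm38. Python 3.11.15, scipy 1.17.1 and blastn 2.17.0 were used. Fisher's exact tests (two-sided) compared 5 shares in 2 pairs of lists, adjusted together by Benjamini-Hochberg, with 0.05 as threshold. The code was tested on simulated data. RepeatMasker annotation was not used here, so LINE-1 and B1 were recognised from sequence. Of the 124 authors' symbols, 119 matched a RefSeq gene by accession and 108 regions lay inside the gene of their symbol.

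Named regions are those in exons of protein-coding genes, the widest of each aligned group, the 5 highest and 5 lowest in CpG, the 5 with most copies, those without repeat-marked bases (0 found) and the tightest cluster; 1 of these regions and the cluster are not reported here. Named genes are their symbols, symbols given more than once and members of the gene lists. The members and lists, and the repeat and CpG shares tested, were chosen with earlier results of these data known. Days are those of the labels, from which the study's text differs.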

Additional observations from a re-analysis of the deposited data

How the results depend on the processing

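All 58 alternative settings of the 10 Fisher's exact tests kept the direction and the call, the highest adjusted p being 0.00041 (multi-copy share against day 5 5hmC, regions at least as wide as the median of their list). The difference, day 0 5mC minus the other list in percentage points, moved by over 1.5 times under these settings: CpG below 0.41 per 100 bp (the genome mean divided by 2, 35.7 against day 10 5mC and 36.4 against day 5 5hmC), CpG below the own flanks (47.5 and 37.9), windows of 36 bases (16.6 and 17.9) or 25 bases (44.6 and 47.9), the multi-copy share in 500 bp around the midpoint (8.57 against day 5 5hmC), at least 50% of the peak in exons (-17.6 and -4.85), and island-like windows of 55% GC and a ratio of 0.65 (-36.8 and -8.34). Regions that align with another day 0 5mC region numbered 171, but 41 at 90% identity, 216 at 70% identity and 254, all in 1 group, at 25% of the shorter length. Genes with a region ranged from 141 to 221. As settings chosen after seeing the data, LINE-1 regions numbered 163 at 25% of bases and 134 at 75%, and AC run regions 41 with runs of at least 40 bases. No paired analysis was possible because every group is a single list, the numbered 5hmC samples having been pooled before deposit. Leaving out a replicate and a stricter fold threshold were not run, since the lists hold neither replicates nor scores, and the wider regions of each list stood in for the threshold. Read depth is unknown, so absence from a list does not show that a site lacked 5mC.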
